A study of Mus musculus with 31 samples.

Results

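The clustered protocadherins of the mouse are 58 genes in 3 neighbouring families on chromosome 18, 14 Pcdha, 22 Pcdhb and 22 Pcdhg genes. Their histone marks were followed through every called peak of H3K27me3 and H3K9me3 that overlapped chr18:36900000-38100000 of the mm9 build. The 18 peak lists of the series held 640 such peaks among 265293 peaks in all, 268 of 62669 for H3K27me3 and 372 of 202624 for H3K9me3. No peak crossed either end of the window. The window was read in 24 steps of 50 kb and, for position, in 3 stretches of 400 kb.

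Clustered protocadherins are cell surface adhesion proteins that give neurons a combinatorial identity and let a neuron tell its own branches from those of others. In the Pcdha and Pcdhg families, each variable exon has its own promoter and encodes an extracellular part, which is spliced to constant exons shared by the family, while Pcdhb genes are complete without such shared exons. H3K27me3 is the repressive mark laid down by Polycomb complexes, often over developmental genes, and H3K9me3 is the mark of heterochromatin, found over repeats and some gene clusters. Primordial germ cells are the embryonic precursors of eggs and sperm, and they erase most of their DNA methylation as they migrate to and settle in the gonad.

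In the RefSeq table of GRCm38.p6, Zmat2 precedes Pcdha1. The Pcdha genes run from Pcdha1 to Pcdha12 and end with the C-type genes Pcdhac1 and Pcdhac2. Pcdhb1 to Pcdhb22 come next, followed by Slc25a2, Taf7, the interleaved Pcdhga and Pcdhgb genes, the C-type genes Pcdhgc3, Pcdhgc4 and Pcdhgc5, and then Diaph1. Of the 58 genes, 57 are listed as protein coding, and Pcdhgb8 is listed as a transcribed pseudogene. That table was used for names and order only, because its build differs from mm9. No peak below is therefore assigned to a gene or a promoter, and part of the window may belong to the neighbouring genes.

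The study profiled both marks by native chromatin immunoprecipitation from 1000 primordial germ cells per reaction. The cells were sorted by flow cytometry from wild type embryos of the C57BL/6 x GOF18delta_PE-EGFP background, which carries a green fluorescent reporter driven by Oct4 regulatory sequence and used to collect germ cells. The 3 groups were E10.5 cells (the E number is the age in embryonic days, cells pooled across embryos, with no sex given), E13.5 female cells and E13.5 male cells. Each group had 3 libraries per mark. The labels do not say that the libraries of a group came from separate litters, so every p-value measures only the spread between these libraries. The files hold peaks only, so neither the purity of the cells nor the activity of a protocadherin gene was tested, and the sequencing depth is unknown.

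Lists differed widely in length before the window was considered. H3K27me3 lists covered 0.159 to 35.5 Mb, and H3K9me3 lists covered 0.441 to 78.9 Mb. The shortest was E13.5 male H3K27me3 replicate 2, with 359 peaks. E10.5 H3K27me3 replicate 2 had 1703 peaks and E10.5 H3K9me3 replicate 3 had 1107. The peak names of both E10.5 replicate 3 lists carry the same input, named there for H3K9me3. The labels give a single E10.5 input for replicate 3, with no mark named. The input labelled for E10.5 H3K9me3 replicate 2 has E13.5 in its stage field, and that H3K9me3 list is by far the longest at E10.5, so E10.5 values are given by library. In the peak names, the E13.5 lists of both marks name the same input in replicates 1 and in replicates 2 of each sex. For these reasons each total is given both in kb and as a share of its own list, in ppm of the list's peak length.

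H3K27me3 lay mainly in the last 400 kb of the window in 8 of 9 libraries. Averaged over the 3 group means, 3 adjoining steps held 23.9 kb, or 71.6% of the window's H3K27me3: chr18:37800001-37850000, chr18:37850001-37900000 and chr18:37900001-37950000. These steps are called the distal block from here on, since it lies toward the end of the window. The step after it, chr18:37950001-38000000, held up to 6.111 kb and had peaks in 6 of 9 libraries. At E10.5 the distal block held 58.8 kb of H3K27me3 in replicate 1, 1.63 kb in replicate 2 and 74.7 kb in replicate 3. The 3 female libraries had 7.13, 25.6 and 18.7 kb there. The male libraries had 14.4, 0 and 14.4 kb. In kb, replicates 1 and 3 of E10.5 thus stood far above every E13.5 library, with 39.2% and 49.8% of the block under peaks. The short E10.5 list fell among the lowest. Those 2 long lists covered 19.9 and 35.5 Mb in all, against at most 5.22 Mb in any E13.5 list. On the ppm scale of the limma fit below, E13.5 minus E10.5 was 0.0113 ± 1.00, 1.45 ± 1.06 and 0.417 ± 0.845 (log2, SE) in the 3 steps, with none called.

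**Figure D1:**
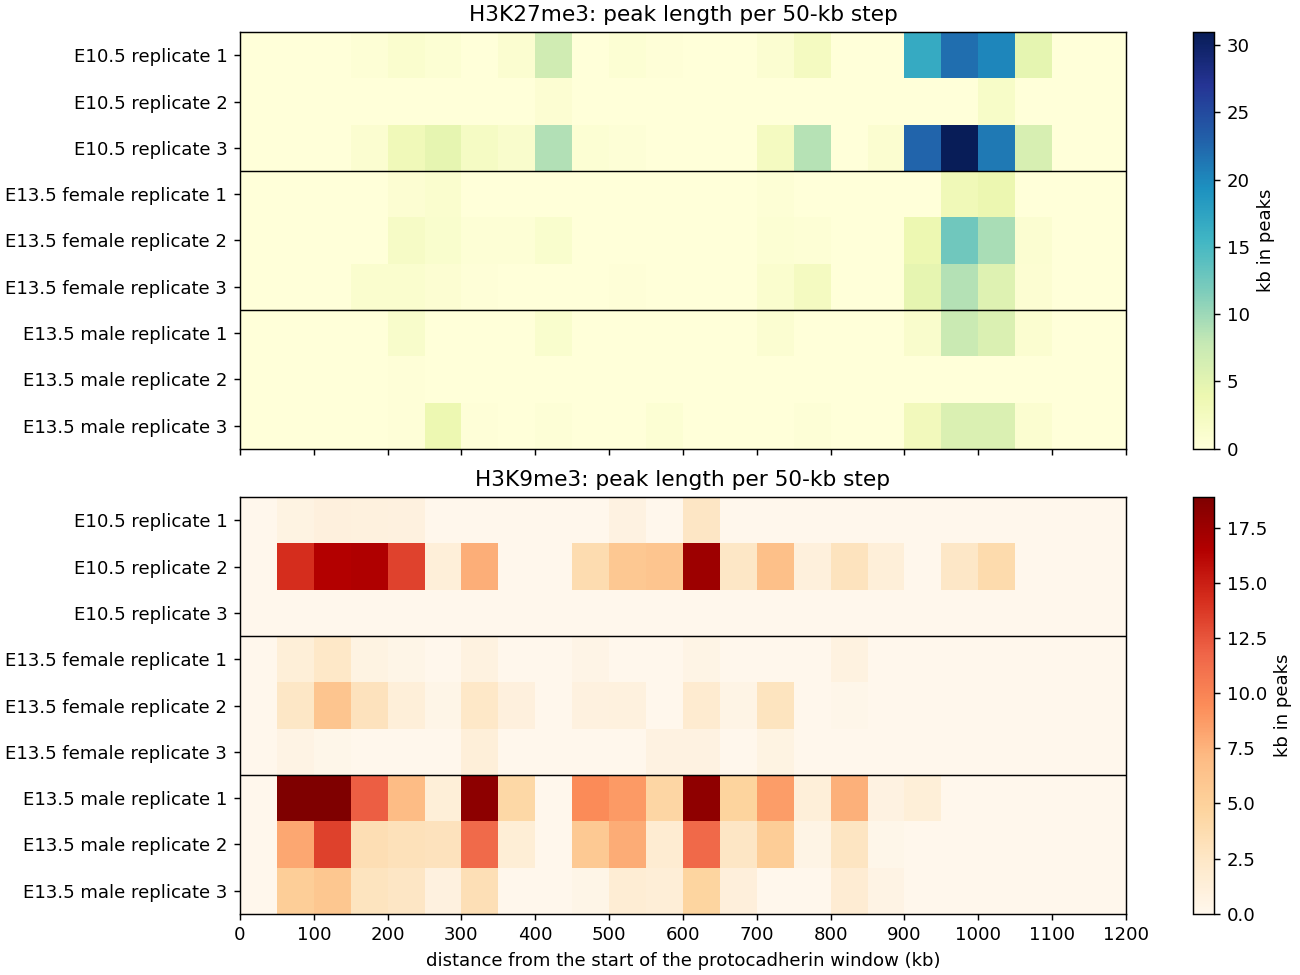
Covered kb in each of the 24 steps (x axis, distance from the window start in kb) for each of the 18 lists (rows, by mark and group), with colour giving kb per step. H3K27me3 appears in the distal block in 8 of 9 rows, most densely in E10.5 replicates 1 and 3, and H3K9me3 appears mostly in earlier steps, with none in E10.5 replicate 3.

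The centre of the distal block carried the most H3K27me3 in the window, with a mean of 10.0 kb over the 3 group means in chr18:37850001-37900000. E10.5 libraries covered 21.956, 0 and 30.95 kb of that step, female libraries 3.165, 12.456 and 8.743 kb, and male libraries 7.417, 0 and 5.745 kb. The step after it, chr18:37900001-37950000, held at least 1 kb of H3K27me3 in 8 of 9 libraries, more than any other step. It held 20.146, 1.626 and 21.088 kb at E10.5, 3.965, 9.4 and 5.395 kb in females, and 5.69, 0 and 5.772 kb in males. In chr18:37800001-37850000 the E10.5 libraries had 16.654, 0 and 22.688 kb, female libraries 0, 3.775 and 4.582 kb, and male libraries 1.287, 0 and 2.852 kb. In all 3 steps the E10.5 and E13.5 ranges overlapped, because E10.5 replicate 2 lay at or near 0.

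Merging the H3K27me3 peaks of the 9 lists where they lay within 1 kb of each other gave 51 regions, and none was held by all 9 lists. The most widely held, chr18:37873456-37920223, spans 46768 bp and had peaks in 8 lists. E10.5 libraries covered 31.9, 1.13 and 36.8 kb of it, female libraries 6.17, 19.2 and 10.535 kb, and male libraries 11.8, 0 and 9.54 kb. The library without a peak there was the 359-peak male list. A second region of the distal block, chr18:37834472-37852976, had peaks in 7 lists, with 14.1, 0 and 15.1 kb at E10.5, 0.705, 2.998 and 3.35 kb in females, and 1.38, 0 and 1.86 kb in males. Between them E10.5 replicates 1 and 3 covered most of that region, and no E13.5 library covered more than 3.35 kb of its 18505 bp.

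The third region, chr18:37921408-37924592, was narrow and was held by 7 lists. It had 2.18, 0.495 and 3.05 kb at E10.5, 0.256, 0.857 and 0 kb in females, and 0.783, 0 and 0.912 kb in males. The fifth region, chr18:37974643-37977293, in the last step with any H3K27me3, was held by 6 lists with at most 1.68 kb, and a further region held by 6 lists had less covered length in sum. No H3K27me3 peak lay in the 100 kb that close the window.

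The fourth region lay away from the block, at chr18:37300360-37310837, and was held by 6 lists. It had 6.89, 0.628 and 7.62 kb at E10.5, 0, 1.055 and 0 kb in females, and 0.853, 0 and 0.286 kb in males. Its step, chr18:37300001-37350000, held 6.89, 0.628 and 8.94 kb at E10.5 against 0, 1.20 and 0 kb in females and 1.14, 0 and 0.286 kb in males. H3K9me3 was at 0 in all 9 libraries in that step, which thus stood as a gap within the H3K9me3 stretch. The remaining H3K27me3 was thin: outside the distal block and this step no E13.5 library had more than 3.833 kb in any step, and the highest E10.5 value was 8.7 kb.

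**Figure D2:**
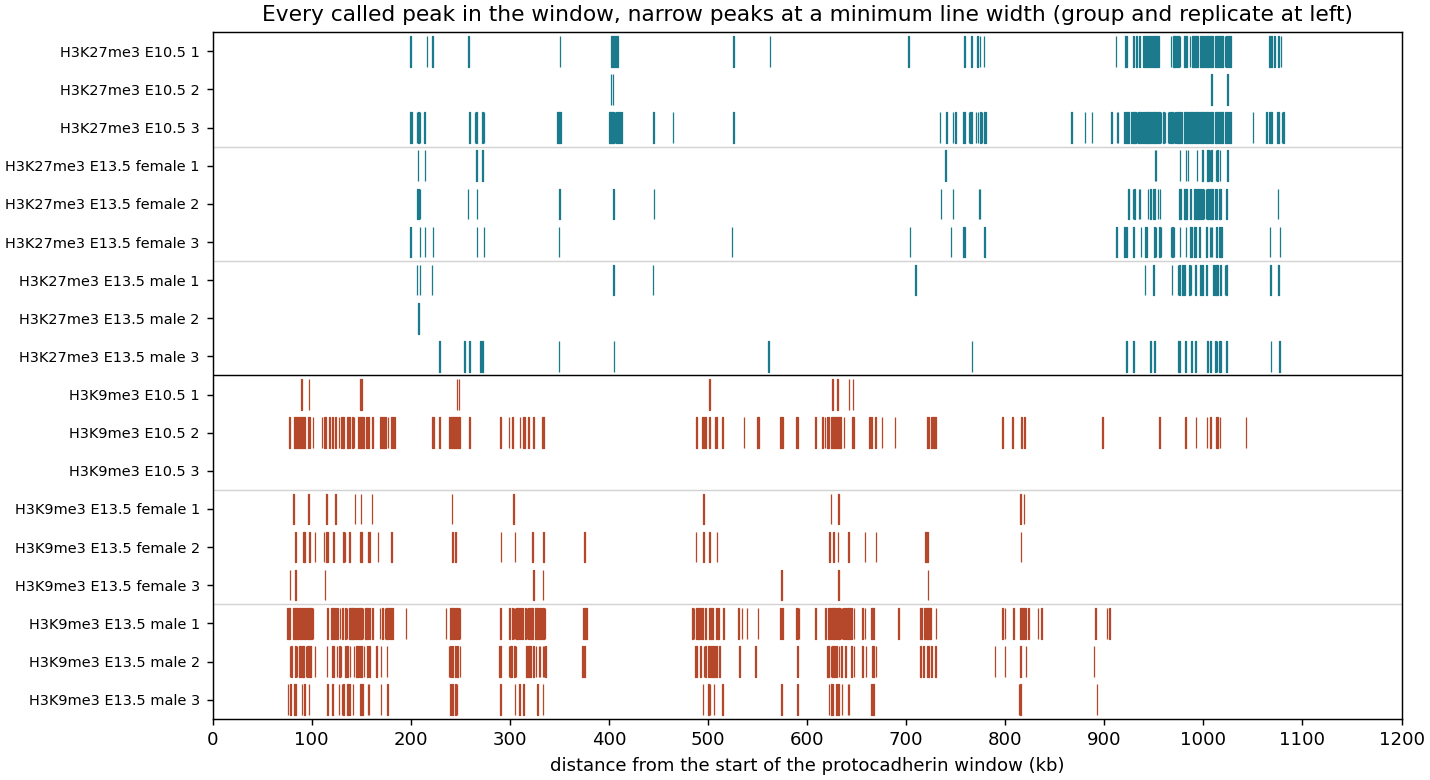
Every peak in the window as a bar along the distance from the window start in kb (x axis), with 1 row per list, narrow peaks drawn at a minimum line width. H3K27me3 peaks crowd into the distal block in E10.5 replicates 1 and 3, while E10.5 replicate 2 has only 4 peaks in the window. E13.5 libraries show mostly narrower peaks in the same stretch, except male replicate 2 with none there. H3K9me3 peaks are spread mostly over the earlier steps.

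H3K27me3 peaks of the last 400 kb were wider at E10.5 in the 2 long lists. Replicate 1 had 28 peaks there with a median width of 1722.5 bp, and replicate 3 had 41 with a median of 1079 bp. Female libraries had 14, 29 and 26 peaks with medians of 432.5, 730 and 582.5 bp. Male replicates 1 and 3 had 20 and 16 peaks with medians of 745 and 854.5 bp. Peaks of at least 2 kb made up 73.4% and 80.4% of that length in E10.5 replicates 1 and 3, and at most 18.1% in any E13.5 library. The short E10.5 list had only 2 peaks there, with a median of 813 bp, within the E13.5 range, so the group ranges overlapped. Over whole lists the median width was 923.5, 827 and 728 bp at E10.5 and 431, 510 and 469 bp in females. In males it was 493.5, 283 and 553 bp, so wider peaks at E10.5 were not particular to this stretch.

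**Figure D3:**
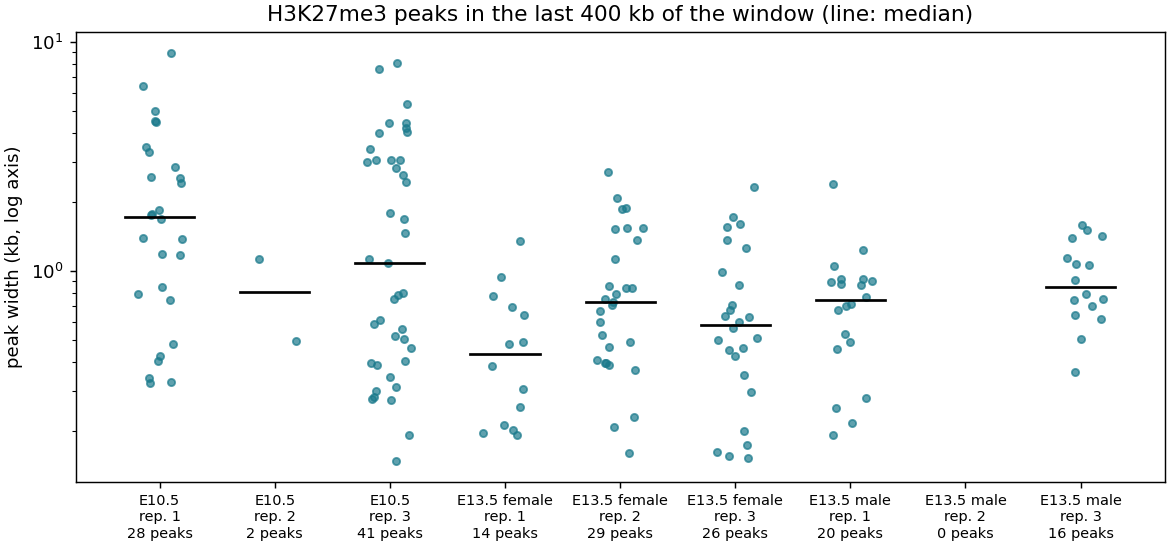
Width in kb (log axis) of each H3K27me3 peak in the last 400 kb, by library, with a line at the median. Peaks above 3 kb appear only in E10.5 replicates 1 and 3, and no peak is plotted for E13.5 male replicate 2.

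The widest H3K27me3 peak of each group came from the same stretch. It was chr18:37911256-37920223 at E10.5 (8968 bp, replicate 1), chr18:37911494-37914202 in females (2709 bp, replicate 2) and chr18:37912053-37914438 in males (2386 bp, replicate 1). The male and female peaks overlapped each other, and both lay inside the E10.5 peak.

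The E13.5 H3K27me3 peaks of the window mostly lay inside the longest E10.5 list. The share of window length inside peaks of E10.5 replicate 3 was 88.2%, 86.7% and 85.3% in females, against 82.1%, 76.5% and 73.4% of the whole list. In males it was 77.7%, 100% and 83.7%, against 79.5%, 56.0% and 75.4%, the value of 100% resting on 1 peak. In turn the E13.5 peaks covered 0.159% to 24.6% of that E10.5 list's window length. Against E10.5 replicate 1 the inside share was 66.9%, 67.3% and 55.0% in females and 64.5%, 0% and 62.3% in males. These shares are read as descriptions, since a longer list holds more of any other list.

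H3K9me3 had a different layout, spread over most steps before the distal block. Its 3 leading steps, chr18:37000001-37050000, chr18:37500001-37550000 and chr18:36950001-37000000, held 19.2 kb over the 3 group means, or 40.8% of its window length. In chr18:37000001-37050000 it covered 0.984, 16.467 and 0 kb at E10.5, 2.357, 6.051 and 0.22 kb in females, and 18.865, 13.413 and 5.949 kb in males. In chr18:37500001-37550000 it covered 2.555, 17.422 and 0 kb at E10.5, 0.484, 1.83 and 0.665 kb in females, and 18.09, 11.513 and 4.605 kb in males. In chr18:36950001-37000000 the values were 0.612, 14.264 and 0 kb at E10.5, 1.276, 2.469 and 0.524 kb in females, and 18.87, 8.06 and 5.277 kb in males. In chr18:37500001-37550000 and chr18:36950001-37000000 every male library stood above every female library in kb, and the E10.5 libraries spanned both. The male lists were longer as a whole, with 25.7 to 78.9 Mb against 4.28 to 12.2 Mb in females. The share of all bins that part the sexes in this way was not computed.

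The H3K9me3 peaks merged into 70 regions, none held by all 9 lists. Those held by 8 lists were chr18:37517880-37543326 and chr18:36975222-36994259, and the list without a peak in either was E10.5 replicate 3, which had no H3K9me3 peak in the whole window. The first of them had 2.25, 14.018 and 0 kb at E10.5, 0.484, 1.83 and 0.665 kb in females, and 15.1, 10.8 and 4.61 kb in males. The second had 0.365, 11.6 and 0 kb at E10.5, 0.982, 1.98 and 0.524 kb in females, and 14.5, 5.86 and 4.94 kb in males. In both regions every male library stood above every female library in kb. The greater length of the male lists applies here too, and no share over other regions was computed. The E10.5 libraries ran from 0 to 14.018 kb in the first and to 11.6 kb in the second.

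Of the 5 H3K9me3 regions held by 7 lists, the 3 with the most covered length are described. The third, chr18:37020031-37053258, had 1.89, 16.3 and 0 kb at E10.5, 1.05, 4.18 and 0 kb in females, and 19.5, 13.7 and 6.44 kb in males. The fourth, chr18:37198886-37224741, had 0, 5.46 and 0 kb at E10.5, 0.757, 0.761 and 0.781 kb in females, and 12.2, 9.27 and 2.70 kb in males. The fifth, chr18:37138636-37149650, ranged from 0 to 10.6 kb at E10.5, from 0 to 1.25 kb in females and from 2.52 to 6.80 kb in males. All 5 regions had no H3K27me3 peak in any of the 9 lists.

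The widest H3K9me3 peak of each group fell in a different place. It was chr18:37523864-37534602 at E10.5 (10739 bp, replicate 2), inside the first region, chr18:37619172-37621993 in females (2822 bp, replicate 2), and chr18:37216410-37221508 in males (5099 bp, replicate 2), inside the fourth region. Of the female H3K9me3 length in the window, 56.8%, 68.8% and 56.2% lay inside peaks of the longest list, male replicate 1, against 66.1%, 60.5% and 66.1% of the whole lists. Of the E10.5 replicate 2 length, 52.6% did so.

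The marks were nearly apart within the cluster, as in most of these lists at large. In the 9 pairs of libraries of the same group and number, no base was shared in 8 pairs, and E10.5 replicate 2 shared 0.132 kb, which was 5.86% of its H3K27me3 and 0.107% of its H3K9me3 in the window. Of those 8 pairs, E10.5 replicate 3 had no H3K9me3 peak in the window, so it could share nothing. Male replicate 2 had a single H3K27me3 peak of 182 bp, so it could share little. The overlap to expect from the covered lengths alone was not computed. Overlap was low across the genome too: it took 0.0426% to 5.52% of the H3K27me3 length of whole lists in 8 pairs and 45.6% in male replicate 2. Over all lists together, H3K27me3 peaks covered 142.9 kb and H3K9me3 peaks 235.6 kb, of which 6.59 kb were shared, or 4.61% of the former and 2.80% of the latter. In the distal block, H3K9me3 was at 0 in 7 of 9 lists, with 6.27 kb in E10.5 replicate 2 and 1.26 kb in male replicate 1. In the 3 leading H3K9me3 steps, H3K27me3 was at 0 in all 9 lists.

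At the scale of steps the marks did meet. With at least 1 kb in some list, 9 of 24 steps held both marks, 2 held H3K27me3 only, 10 held H3K9me3 only and 3 held neither. With any peak counted, 14 steps held both marks, 2 H3K27me3 only, 5 H3K9me3 only and 3 neither. The 3 empty steps were the first and the last pair of the window.

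The position of a library's peak length separated the marks in all but 1 library. The centre of H3K27me3 length lay 892, 843 and 838 kb from the window start at E10.5, at 851, 873 and 864 kb in females, and at 893, 208 and 816 kb in males. The value of 208 kb comes from the only window peak of male replicate 2, which is 182 bp wide. The centre of H3K9me3 length lay at 381 and 394 kb in the E10.5 libraries with peaks, at 280, 321 and 441 kb in females, and at 393, 394 and 338 kb in males. The mean centres were 786 kb (n = 9) and 368 kb (n = 8), and the difference of -419 kb for H3K9me3 minus H3K27me3 became -491 kb without male H3K27me3 replicate 2.

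The share of window length in the last 400 kb gave the same order. For H3K27me3 it was 82.1%, 72.1% and 71.3% at E10.5, 77.4%, 81.4% and 75.2% in females, and 82.4%, 0% and 73.9% in males. For H3K9me3 it was 0% and 8.47% in the E10.5 libraries with peaks, 11.3%, 0.782% and 0% in females, and 6.61%, 3.51% and 6.78% in males. Both position measures were chosen after the positions had been seen, so no test is given. Such a distance between marks was not rare: on centres of 50-kb bins it was -426 kb here, and 1103 of the 4465 windows of equal size with at least 8 lists of each mark, or 24.7%, had one at least as large in either direction.

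**Figure D4:**
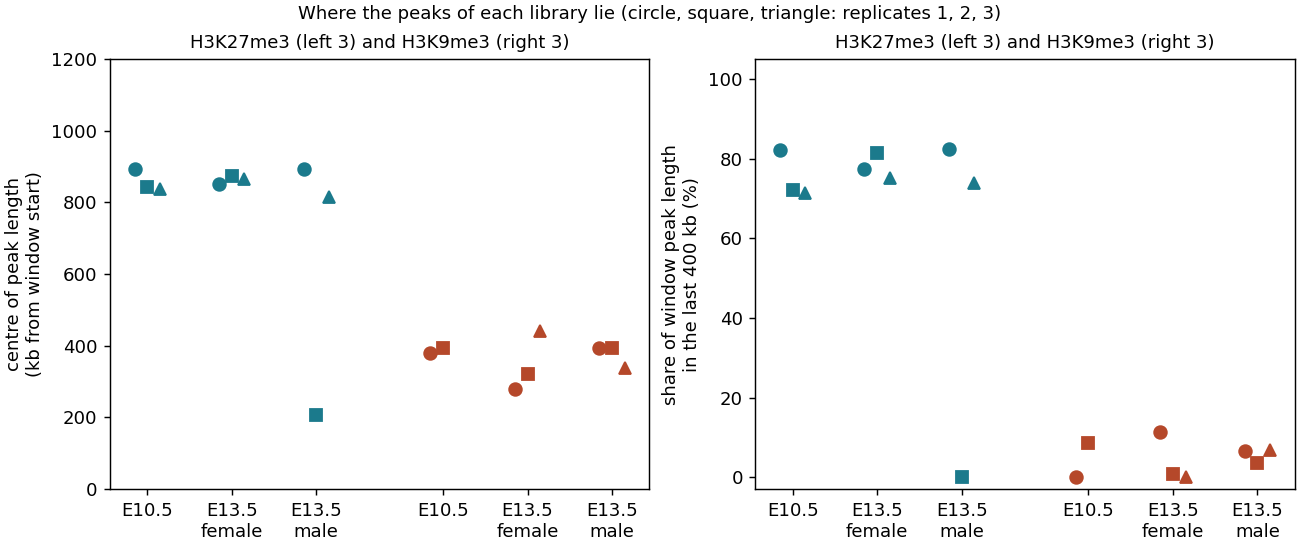
Centre of peak length in kb from the window start (left) and share of window peak length in the last 400 kb in percent (right), 1 point per library, by mark and group. H3K27me3 libraries lie at 816 to 893 kb and at 71.3% to 82.4% except E13.5 male replicate 2, and H3K9me3 libraries lie at 280 to 441 kb and at 0% to 11.3%.

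Relative to its own list, the window held more H3K27me3 than H3K9me3. The 9 H3K27me3 lists had a mean of 4491 ppm of their peak length there and the 9 H3K9me3 lists 1644 ppm, a difference of -2846 ppm for H3K9me3 minus H3K27me3 (exact permutation test, two-sided, p = 0.00522 over 48620 splits). That test shuffled libraries across groups and ignored the pairing of the marks. With the marks paired by group and number the exact permutation p was 0.0273, and H3K9me3 was lower in 7 of the 9 pairs. In kb the order was the other way, 47.1 kb for H3K9me3 against 33.4 kb for H3K27me3, with a difference of 13.6 kb that did not pass (exact permutation p = 0.552). Within groups the ppm differences were -747 at E10.5 (exact permutation p = 0.6), -4788 in females (p = 0.1, the smallest that 3 against 3 allow) and -3003 in males (p = 0.4).

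The E13.5 H3K27me3 lists placed 11.2% to 26.8% of their chromosome 18 peak length in this window. The window took 19.6%, 16.2% and 20.2% of the chromosome's H3K27me3 length in females, 26.8%, 11.2% and 22.9% in males, and 12.7%, 4.60% and 10.53% at E10.5. The male value of 11.2% rests on 1 peak of 182 bp. E10.5 replicates 1 and 3 covered 19.9 and 35.5 Mb in all, against at most 5.22 Mb at E13.5, and the part of list length was not tested. For H3K9me3 the values were 9.42% and 9.95% in the E10.5 libraries with peaks, 4.62% to 8.59% in females and 4.495% to 6.71% in males. Among 52357 sliding windows of the same 1.2 Mb over the genome, 0.495% to 1.87% held as much H3K27me3 as this one in 7 lists, and 11.1% and 12.0% in the 2 lists with the fewest peaks. For the 8 H3K9me3 lists with peaks here that share was 0.961% to 8.96%. The stretches of 1.2 Mb before and after the window were sparser, with at most 45.8 kb of H3K27me3 before it and 17.9 kb after it, both in E10.5 replicate 3, and at most 8.15 and 0.783 kb of H3K9me3.

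Between groups, H3K27me3 in kb was highest at E10.5 in the 2 long lists, and no difference passed its test. Window totals were 77.3, 2.25 and 114.5 kb at E10.5, 9.21, 32.5 and 25.7 kb in females, and 18.6, 0.182 and 20.6 kb in males. The means were 64.7 ± 57.2, 22.5 ± 12.0 and 13.1 ± 11.3 kb (SD, n = 3 each). E13.5 minus E10.5 was -46.9 kb (exact permutation p = 0.0714, adjusted p = 0.4 over 8 tests). Female minus E10.5 was -42.2 kb, male minus E10.5 -51.5 kb and male minus female -9.35 kb, each with an adjusted p of 0.64 by the exact permutation test. Leaving out E10.5 replicate 2 or 3 moved E13.5 minus E10.5 to -78.1 or -21.9 kb, female minus E10.5 to -73.4 or -17.3 kb and male minus E10.5 to -82.8 or -26.6 kb. Male minus female ran from -16.0 kb without female replicate 1 to -2.87 kb without male replicate 2.

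As a share of the list the H3K27me3 order turned. The values were 3890, 1082 and 3223 ppm at E10.5, 5911, 6234 and 6232 ppm in females, and 7532, 1144 and 5168 ppm in males, with means of 2732 ± 1467, 6126 ± 186 and 4615 ± 3229 ppm (SD, n = 3 each). Every female library stood above every E10.5 library, by 3394 ppm on average, with an exact permutation p of 0.1 (the smallest that 3 against 3 allow) and an adjusted p of 0.476. Of the male libraries, 2 stood above all E10.5 libraries and the shortest did not. Male minus E10.5 was 1883 ppm (exact permutation p = 0.4), which became 3618 ppm without male replicate 2 and 424 ppm without male replicate 1, and all E13.5 minus E10.5 was 2639 ppm (p = 0.119, adjusted p = 0.476). Male minus female was -1511 ppm (exact permutation p = 0.7), and without male replicate 2 it was 224 ppm.

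**Figure D5:**
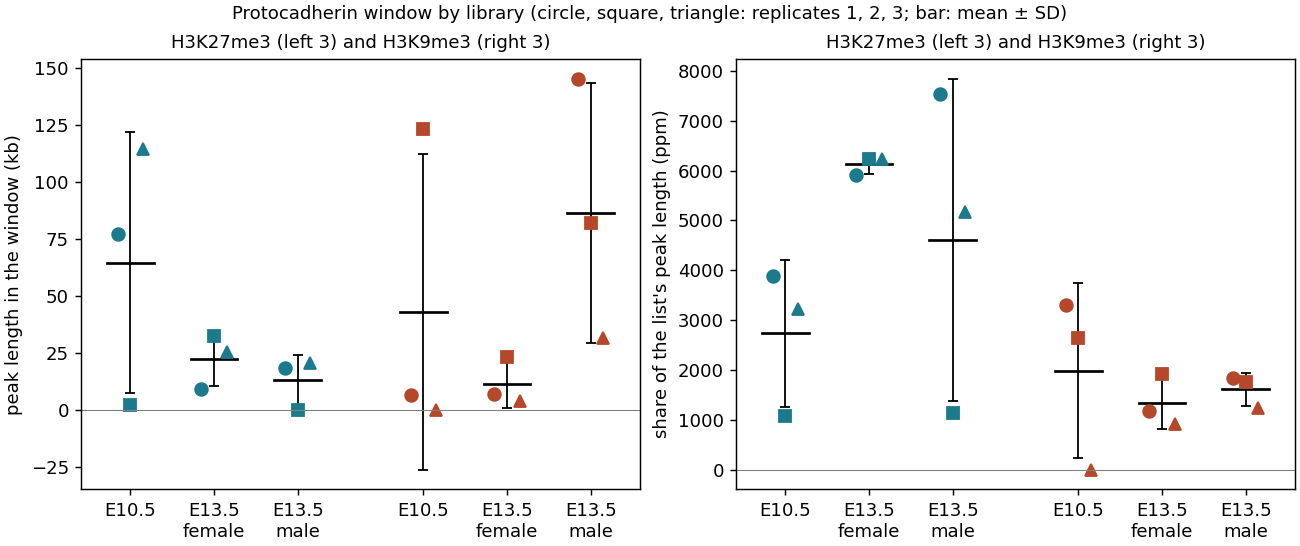
Window peak length per library in kb and as ppm of the list's peak length, by mark and group, with points for libraries and bars for the group mean and SD (n = 3). For H3K27me3 the E10.5 mean is highest in kb at 64.7 and lowest in ppm at 2732, and groups do not overlap for H3K27me3 ppm in females against E10.5 and for H3K9me3 kb in males against females.

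H3K9me3 in the window was highest in kb in the males. The totals were 6.61, 123.2 and 0 kb at E10.5, 7.05, 23.5 and 3.93 kb in females, and 145.4, 82.2 and 31.9 kb in males, with means of 43.3 ± 69.3, 11.5 ± 10.53 and 86.5 ± 56.9 kb (SD, n = 3 each). Every male library stood above every female library, by 75.0 kb on average (exact permutation p = 0.1, the smallest that 3 against 3 allow, adjusted p = 0.4). The male lists were also the longer ones, with 25.7 to 78.9 Mb against 4.28 to 12.2 Mb, and the part of list length in the difference was not tested. Female minus E10.5 was -31.8 kb and, without E10.5 replicate 2, 8.2 kb. Male minus E10.5 was 43.2 kb, and all E13.5 minus E10.5 was 5.73 kb, a value whose sign changed when either of E10.5 replicates 1 and 3 or of male replicates 1 and 2 was left out.

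As a share of the list, male and female H3K9me3 came together. The values were 3308, 2644 and 0 ppm at E10.5, 1168, 1927 and 919 ppm in females, and 1843, 1751 and 1239 ppm in males, with means of 1984 ± 1750, 1338 ± 525 and 1611 ± 325 ppm (SD, n = 3 each). Male minus female was 273 ppm (exact permutation p = 0.6) and the groups overlapped. Female minus E10.5 was -646 ppm, male minus E10.5 -373 ppm and all E13.5 minus E10.5 -510 ppm, each with an adjusted p of 0.8 by the exact permutation test. Without E10.5 replicate 1 these became 15.7, 289 and 152 ppm. Both E10.5 libraries with peaks in the window were above every E13.5 library, and the remaining one was at 0.

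Step by step, no group difference was called in the cluster. The limma fit ran over all 50-kb bins of the genome with peaks in at least 3 libraries of a mark, on log2(ppm + 100), and 13 window steps entered it for H3K27me3. None of the 13 had an adjusted p under 0.05 in any comparison, against a background of 0% of 3976 bins called for female minus E10.5, 0.0755% for male minus E10.5, 0% for male minus female and 0.0503% for all E13.5 minus E10.5. At an unadjusted p under 0.05, 1 of 13 steps (7.69%) passed in each comparison with E10.5 and 0 between the sexes. Over all bins 9.1%, 11.9% and 9.78% passed for females, males and all E13.5 against E10.5 and 8.43% between the sexes, so the cluster was not above the background. The step was chr18:37100001-37150000, where the log2 difference in ppm was 1.61 ± 0.70 (SE) for females (limma adjusted p = 0.522) and 1.79 ± 0.70 for males (limma adjusted p = 0.384). Its H3K27me3 covered 1.041, 0 and 3.141 kb at E10.5, 0.656, 1.92 and 0.981 kb in females and 1.334, 0.182 and 0.194 kb in males, so in kb the E10.5 mean was the highest and the sign belongs to the ppm scale.

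For H3K9me3, 16 window steps entered the limma fit and none was called. The background called was 0.4% of 15004 bins for female minus E10.5, 0% for male minus E10.5, 0.507% for male minus female and 0% for all E13.5 minus E10.5. At an unadjusted p under 0.05, 1 of 16 steps (6.25%) passed in each comparison with E10.5 and 0 between the sexes, against 6.56%, 16.4% and 9.9% of all bins for females, males and all E13.5 against E10.5 and 16.7% between the sexes. The step was chr18:37200001-37250000, the step that holds most of the fourth H3K9me3 region, with log2 differences of 1.07 ± 0.41 (SE) for females (limma adjusted p = 0.666) and 1.10 ± 0.41 for males (limma adjusted p = 0.255). H3K9me3 there covered 0, 7.72 and 0 kb at E10.5, 0.757, 2.337 and 1.187 kb in females, and 18.203, 11.476 and 3.322 kb in males. In kb the E10.5 mean of 2.57 was above the female mean of 1.43, so the sign for females belongs to the ppm scale. Without E10.5 replicate 2, which left E10.5 with a short list and an empty one, 1 of 15 steps (6.67%) was called in each of these 3 comparisons, against 3.72%, 7.7% and 4.4% of all bins.

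A count of steps that separate groups needed no fit: at least 1 kb in every library of 1 group and less than 1 kb in every library of the other. H3K9me3 separated male from female libraries in 4 of 24 steps, all held by the males. Of the 24 steps, 19 had an H3K9me3 peak in some list and 16 an H3K27me3 peak. Over the 23754 bins of the genome with an H3K9me3 peak in some list, 10.7% separated the sexes in that direction. All shares of bins given for this count are over bins with a peak, so they compare with those steps and not with all 24. The 4 steps were chr18:37400001-37450000, chr18:37450001-37500000, chr18:37550001-37600000 and chr18:37700001-37750000. In the first the males had 8.729, 7.873 and 1.552 kb and the females 0, 0.914 and 0 kb. In the last the males had 7.648, 2.694 and 1.632 kb and the females 0.797, 0.184 and 0 kb. The males' lists were longer across the genome, and without female replicate 2 the count was 7, against 16.5% of bins. None of the 4 steps separated the sexes with any overlap counted, with a limit of 5 kb or with a score of at least 20, where the count was 1 step of another position.

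No other comparison had a separating step. The share of bins that separated groups in either direction was 0.0716% for H3K9me3 in females against E10.5, 3.13% in males against E10.5 and 0.0168% in all E13.5 against E10.5. For H3K27me3 it was 1.15% of 10311 bins in females against E10.5, 1.33% in males against E10.5, 0.475% in males against females and 0.776% in all E13.5 against E10.5. The count of 0 rested on 1 library in several comparisons. Without E10.5 replicate 2, H3K27me3 separated E10.5 from females in 1 step, from males in 2 and from all E13.5 libraries in 1. Of the bins with a peak, 18.2%, 21.5% and 16% did so in that direction. Without that H3K9me3 replicate, males were separated from E10.5 in 9 of 24 steps, against 22.6% of bins with a peak, and without male replicate 3 in 1, against 11.9%.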

How the data were processed

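Each of the 18 libraries came with a list of broad peaks deposited by the authors. Per the submitters' processing notes, the tools were MACS2 2.1.0, BWA 0.7.5a, CASAVA 1.8.4, deepTools 3.3.0, SAMtools and Picard, on mm9. Call thresholds were not given in the sources used here, and 13 input libraries were not analysed. The deposited score columns have no stated scale, and a score served only to rank or filter peaks within its list. Over the 18 lists, 19 mitochondrial peaks were dropped.

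Peaks were merged within a list, clipped to the window and its 50-kb steps, and summed. Exact two-sided permutation tests compared group means per library, with Benjamini-Hochberg adjustment over 8 tests per measure, 2 marks by 4 comparisons. With 3 against 3 libraries no p can fall under 0.1, and with 3 against 6 none under 0.0119. limma 3.58.1 in R 4.3.3 was fitted genome-wide. Named regions are the 5 per mark held by the most lists (ties went to the larger covered length summed over lists), the widest peak of each group and the 3 fullest steps. Any other step was named, and both position measures were chosen, after values were seen. The computation was tested on simulated data and used numpy 2.4.6 and scipy 1.17.1.

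The members and lists were chosen with earlier results of these data known. No sequence is printed.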

Additional observations from a re-analysis of the deposited data

Results flagged for a closer look

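The difference between the marks in window length went in opposite directions in the sexes at E13.5. H3K9me3 minus H3K27me3 was -2.16, -9.01 and -21.8 kb in the female libraries of the same number and 126.7, 82.0 and 11.2 kb in the male ones, a gap of -84.3 kb for female minus male. It drew attention because every female pair was below 0 and every male pair above it. The gap was not tested beyond this, since such a separation of 3 against 3 fixes the exact permutation p at 0.1. As shares of the lists the signs did not part: the difference was -4743, -4307 and -5313 ppm in the female pairs and -5688, 607 and -3928 ppm in the male pairs (exact permutation p = 0.5). The male H3K9me3 lists were longer than the female ones, as given above, and the part of list length in this gap was not tested.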

How the results depend on the processing

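Of the results with a test or count, those not named here kept their direction and side of the threshold under every alternative computed. With a score of at least 20, H3K27me3 male minus female turned to 0.702 kb, and H3K9me3 male minus E10.5 and E13.5 minus E10.5 to -12.5 and -15.6 kb. With equal numbers of top-ranked peaks per mark, H3K27me3 female, male and all E13.5 minus E10.5 became 0.776, 0.724 and 0.750 kb, H3K9me3 male minus E10.5, male minus female and E13.5 minus E10.5 became -0.385, -0.056 and -0.357 kb, and H3K9me3 male minus female became -128 ppm. The mark difference turned to 13.6 when taken in kb. The count of 4 H3K9me3 male steps became 1 with any overlap, with at least 5 kb or with a score of at least 20, and 2 with 100-kb bins. The 1 step was in no case one of the 4. Leaving out 1 library, H3K9me3 female minus E10.5 ran from -53.4 to 8.2 kb and from -1638 to 15.7 ppm. H3K9me3 male minus E10.5 ran from -1365 to 289 ppm. H3K9me3 E13.5 minus E10.5 ran from -15.9 to 45.7 kb, passing -12.6, -13.5 and -0.911 kb, and from -1502 to 152 ppm. H3K27me3 male minus female ran from -2970 to 224 ppm. Separating steps then ran from 0 to 1, 0 to 2 and 0 to 1 for H3K27me3 female, male and all E13.5 against E10.5, from 0 to 9 for H3K9me3 male against E10.5 and from 4 to 7 for male against female. Steps called by limma ran from 0 to 1 in each H3K9me3 comparison with E10.5. The cause of these changes was not tested, and leaving out a library also left fewer libraries in its group. Within a mark, the replicate numbers gave no clear pairing of libraries across groups, except for H3K9me3 between E10.5 and females. Same-numbered deviations correlated at -0.157 to 0.133 for H3K27me3, against -0.231 to 0.202 for other pairs. For H3K9me3 the ranges were -0.0408 to 0.142 and -0.0748 to 0.0547. The same-numbered H3K9me3 pairs of E10.5 and females had 0.0828, 0.142 and 0.0706, above every other H3K9me3 pair. Pairs of unlike number between these groups were all negative, at -0.0670 to -0.0266. Same-numbered H3K9me3 pairs with males ran from -0.0408 to 0.0338. Pairing of the 2 marks within a group was not tested. The limma fit with the replicate block changed no call in the window. Across the genome it took the bins called by limma from 60 and 76 to 0 for H3K9me3 female minus E10.5 and male minus female, from 3 and 2 to 0 for H3K27me3 male and all E13.5 minus E10.5, and from 0 to 1 for H3K27me3 male minus female. With the marks paired by group and number, the mark difference stayed at -2846 ppm with an exact permutation p of 0.0273. With the same number of peaks taken from all 18 lists, the position measures gave no value, because no H3K9me3 list then had a peak in the window. Unknown depth limits every comparison, and a step without a peak is not shown to lack the mark.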
